A study of Dunaliella salina with 18 samples.

Results

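In the unicellular green alga Dunaliella salina, strain CCAP 19/3, 53 of 43236 assembled transcripts (0.123%) were near silent at 0h and at 24h of the H2L arm and present at 4h. They were chosen by their H2L values: a mean under 1 unit at 0h, a mean under 1 unit at 24h, and at least 2 units in each of the 3 libraries at 4h. The unit is the deposited abundance, which is scaled for transcript length and library depth, so levels can be compared between transcripts. Because the rule used the 9 H2L libraries, all H2L values below are descriptions without a test. Tests compared groups of the L2H arm, whose 9 libraries the rule did not use. Their spread was estimated over all 18 libraries, and so in part from H2L values that the rule used.

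The study sequenced RNA of algal culture cells from 2 arms that were moved between salinities in opposite directions. Each arm was sampled at 3 times, 0h, 4h and 24h, with 3 libraries a time and 18 in all. The titles name the arms H2L and L2H, while the condition field names the H2L arm low-salt to high-salt and the L2H arm high-salt to low-salt. The arms therefore keep their title names here and neither is given a direction. All groups are of the same strain, no other agent or genotype is named, and the labels do not say how cultures were grown or divided, so the spread between libraries may be technical. The library totals were 749880 to 842410 units, and transcripts listed at 0 numbered 3968 to 6626 per library. At H2L 4h they numbered 3969, 3968 and 5479, in each case the fewest among libraries of the same number. A mean of at least 1 unit was reached by 65.7% of all transcripts at H2L 4h. In the other groups it was reached by 59.9% to 62.4%. How far this difference over the whole table enters the choice of the 53 was not tested. The third library of a group carries a title tag set of its own. Across transcripts, which are not independent replicates, Pearson's r of log2 values was 0.966 to 0.971 for library 1 with library 2 and 0.950 to 0.966 for either with the third. In L2H the third library at 0h and the third at 4h had r = 0.970 with each other. Within every tag set the tag at 24h differs from that at 0h and 4h, so time and tag cannot be told apart in comparisons with 24h.

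Dunaliella cells lack a rigid cell wall. They meet a change of outside salinity first by shrinking or swelling, and then by adjusting the glycerol they hold as the main compatible solute, together with ion transport and changes in gene expression. Which of these processes the 53 transcripts belong to is not known from the table: it gives assembly identifiers without gene names, and 0 of them occur among the reference's gene identifiers, which belong to strain CCAP 19/18. Transcripts are therefore called by identifier, and no function is assigned to any of them. In an identifier the part beginning with c names a component of the assembly, the part beginning with g a gene-level cluster in it, and the part beginning with i an isoform. In bulk RNA, transcription in fewer cells and less RNA per cell cannot be told apart.

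At 4h most of the 53 transcripts stood under 5 units, above a floor of 2 units that the rule set. Their H2L 4h means ran from 2.15 to 14.6 units with a median of 3.25, beside a median of 2.34 over all transcripts. In 20 of them the mean was under 3 units, and 7 reached 5 units or more. Summed over the 53, abundance was 205.9, 206.4 and 218.8 units in the 3 libraries at 4h. The sums were 30.6, 30.4 and 16.4 units at 0h and 41.1, 29.4 and 29.5 units at 24h. The 3 libraries at 4h thus gave nearly equal sums, several times those before and after, a gap that the rule itself fixes.

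**Figure D1:**
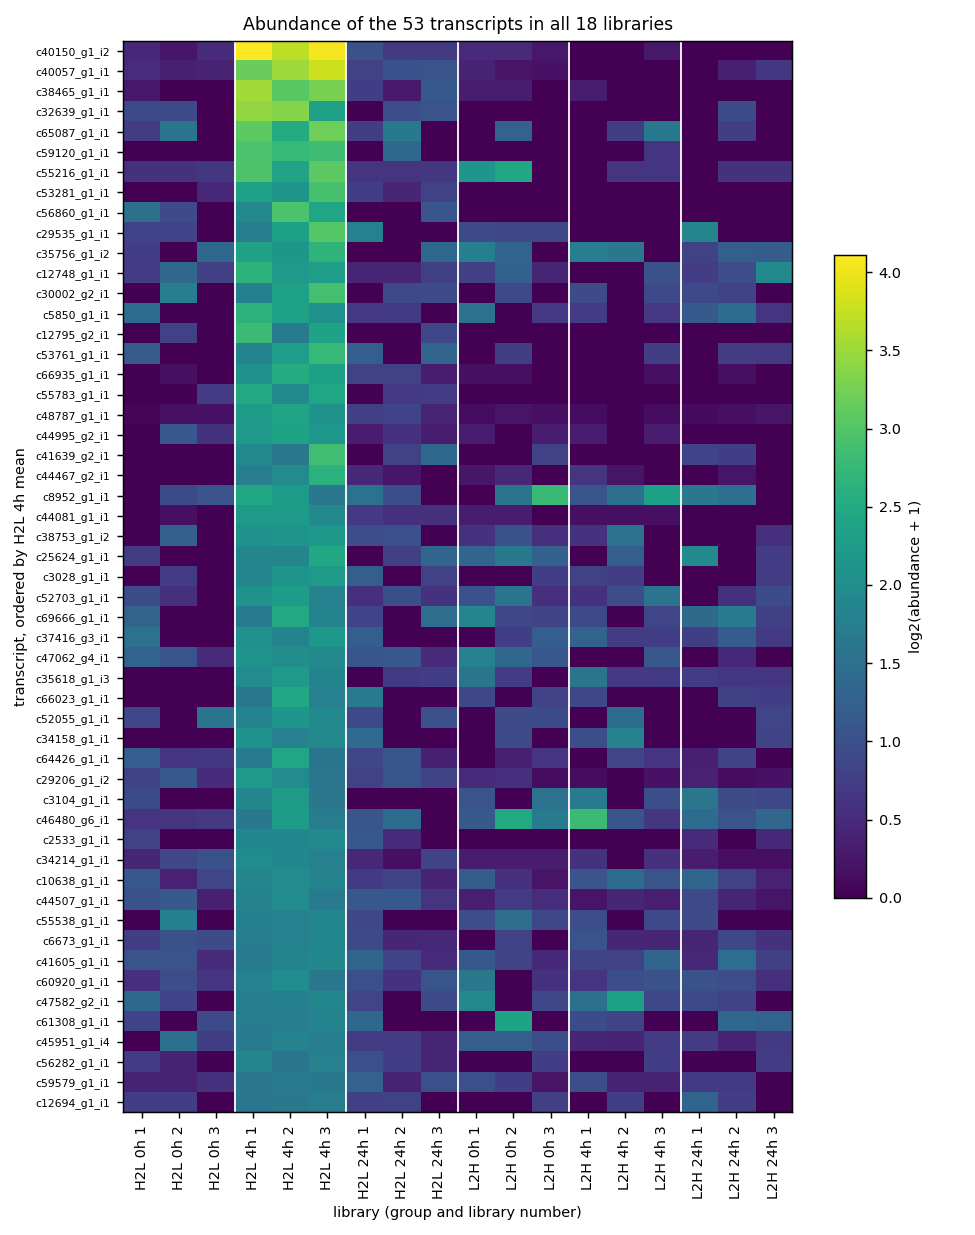
Abundance of the 53 transcripts (rows, ordered by H2L 4h mean) in all 18 libraries (columns), coloured by log2 of abundance plus 1. The H2L 4h columns are bright by the rule, and most L2H cells are dark, with scattered brighter cells in rows such as c46480_g6_i1 and c8952_g1_i1.

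The most abundant was c40150_g1_i2. It gave 0.39, 0.19 and 0.42 units at H2L 0h, 16.3, 11.9 and 15.5 units at 4h, and 1.02, 0.62 and 0.63 units at 24h. Its 4h mean of 14.6 ± 2.31 (SD, n = 3) was 19.3 times its 24h mean of 0.757 ± 0.228. In the L2H arm it never passed 0.42 units, and it was listed at 0 in 5 of the 9 L2H libraries, among them all 3 at 24h.

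The transcript c40057_g1_i1 followed with 7.98, 10.4 and 12.9 units at H2L 4h, after 0.43, 0.29 and 0.31 units at 0h and before 0.75, 1.06 and 1.08 units at 24h. Its L2H values did not exceed 0.58 units. The third was c38465_g1_i1, at 10.7, 7.34 and 8.58 units at 4h. It gave 0.22, 0 and 0 units at 0h and 0.69, 0.23 and 1.20 units at 24h. For these 3 transcripts the lowest 4h value lay at least as high as 7.34 units, while no other library of either arm passed 1.20 units.

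Next in level, the transcript c32639_g1_i1 gave 9.89, 9.18 and 4.12 units at 4h, and c65087_g1_i1 gave 7.38, 4.78 and 8.20 units. In c65087_g1_i1 the silent groups were uneven too, with 0.66, 1.98 and 0 units at 0h and 0.69, 2.15 and 0 units at 24h. The transcript c59120_g1_i1 was the most even of the 10 highest, at 6.68, 5.73 and 6.15 units. It was listed at 0 in all 3 libraries at 0h, in 2 of the 3 at 24h, where the other gave 1.62 units, and in 8 of the 9 L2H libraries. The remaining members of the highest 10 were c55216_g1_i1, c53281_g1_i1, c56860_g1_i1 and c29535_g1_i1, with 4h means of 6.18 ± 1.69, 4.71 ± 1.63, 4.60 ± 1.96 and 4.51 ± 2.42 units (SD, n = 3).

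**Figure D2:**
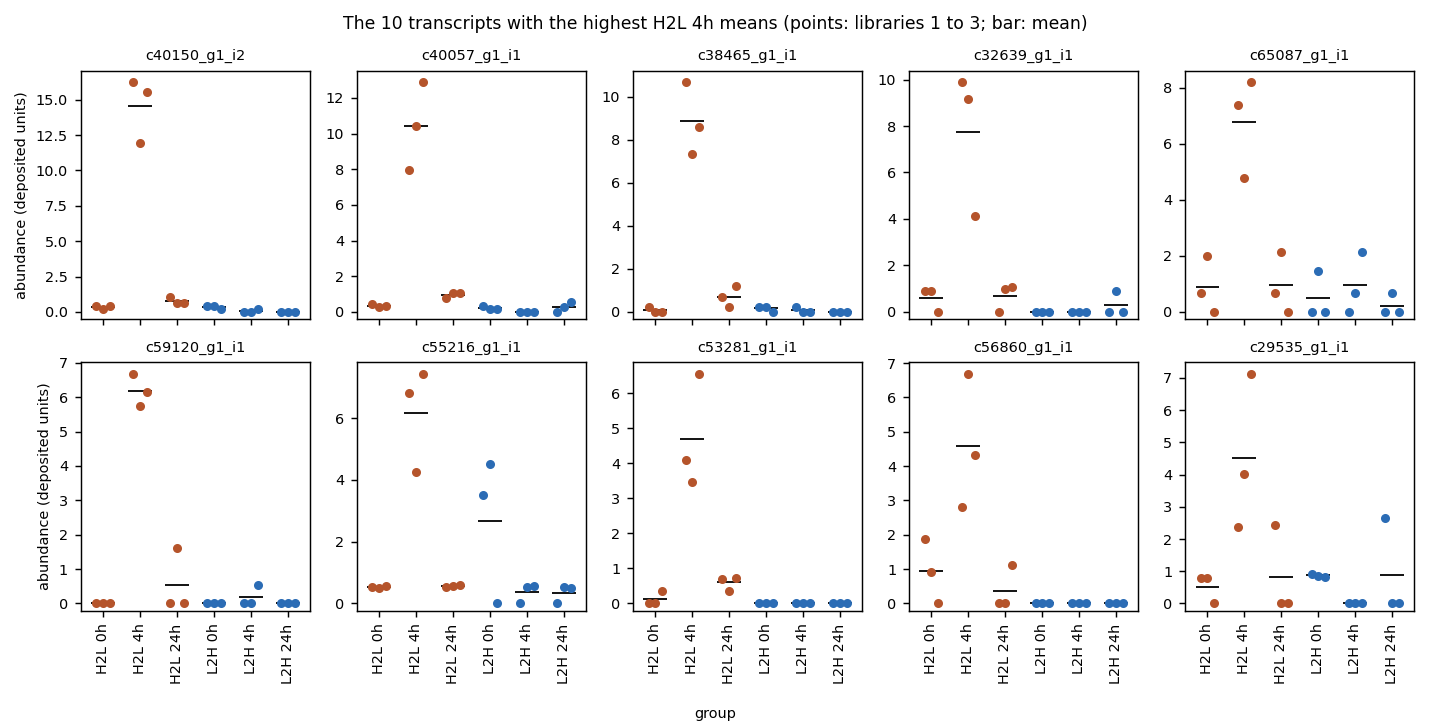
Abundance in deposited units (vertical axis, scaled per panel) of the 10 transcripts with the highest H2L 4h means, by group (horizontal axis); points are libraries 1 to 3 and bars are means. The H2L 4h points stand above all other points in 8 of the 10 panels, in c55216_g1_i1 they overlap L2H 0h, and in c29535_g1_i1 they overlap a library of H2L 24h and one of L2H 24h.

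The libraries at 4h agreed to different degrees. The highest of the 3 values was 1.44 times the lowest in the median transcript, and at least 2 times the lowest in 12 of the 53. The ratio was largest in c29535_g1_i1 (2.37, 4.02 and 7.13 units), c41639_g2_i1 (2.80, 2.13 and 6.24 units) and c30002_g2_i1 (2.40, 4.08 and 6.33 units). In all 3 the third library was the highest. Over the 53 the third library was the highest in 21 and the lowest in 16, so it did not lead throughout.

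At H2L 0h, 6 transcripts were listed at 0 in every library: c59120_g1_i1, c41639_g2_i1, c44467_g2_i1, c35618_g1_i3, c66023_g1_i1 and c34158_g1_i1. At 24h this held for c3104_g1_i1 alone, and 0 of the 53 were listed at 0 in all 6 libraries of both times. The other 46 transcripts were therefore near silent rather than unseen at both ends. All 53 had their 4h values above every 0h value, and 51 had them above every 24h value. The same holds for 16.1% and 19.0% of the 34166 transcripts with at least 1 unit in 3 or more libraries. The rule used both contrasts, so nothing is read from these counts. The exceptions at 24h were c29535_g1_i1, whose first library gave 2.45 units, and c66023_g1_i1, whose first library gave 2.24 units.

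The choice of members is sharp at 2 units. Just inside stood c56282_g1_i1 (2.64, 2 and 2.45 units at 4h), c64426_g1_i1 (2.19, 4.42 and 2.02) and c29206_g1_i2 (3.64, 2.94 and 2.05). Just outside stood c36265_g1_i2 (1.99, 2.01 and 2.12 units), c66204_g1_i1 (3.91, 1.99 and 4.34) and c14551_g1_i1 (4.33, 2.65 and 1.98). These 3 meet both silent limits as the members do, and they miss the limit of 2 units by 0.01 or 0.02 units in a single library. At the silent limit, c47062_g4_i1 had a 0h mean of 0.993 units and c12748_g1_i1 one of 0.990.

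A rough guide to how coarse a transcript's values are is the lowest value above 0 that a transcript took in any of the 18 libraries. Its median was 0.53 units among the 53, beside 0.30 among the 14025 other transcripts with both H2L silent means under 1. Over the 159 values at 4h, the median was 7.28 times the transcript's own lowest value above 0. In 24 of the 53 transcripts at least one 4h value was under 5 times that lowest value, and in 15 all 3 were at least 10 times it. The number of reads behind a value is unknown, so no counting interval can be stated.

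Those 15 transcripts were picked out after their values were seen and by their H2L 4h height, so what they show is a description. They include c40150_g1_i2, c40057_g1_i1 and c38465_g1_i1, and also lower ones. The transcript c48787_g1_i1 gave 0.05, 0.14 and 0.15 units at 0h, 3.83, 4.30 and 3.29 units at 4h, and 0.72, 0.77 and 0.35 units at 24h. The transcript c66935_g1_i1 gave 0, 0.12 and 0 units at 0h, 3.30, 4.80 and 4.05 units at 4h, and 0.74, 0.75 and 0.25 units at 24h. The transcript c44081_g1_i1 gave 0, 0.12 and 0 units, then 3.71, 3.73 and 2.84 units, then 0.61, 0.49 and 0.50 units. In these 3 the L2H values were at most 0.19, 0.13 and 0.25 units.

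In 6 transcripts the H2L 24h libraries all lay above the 0h libraries, and in 0 they all lay below. The 6 were c40150_g1_i2, c40057_g1_i1, c38465_g1_i1, c48787_g1_i1, c66935_g1_i1 and c44081_g1_i1. The share of the 53, 11.3%, stands beside 13.1% of the 34166 transcripts and 6.07% of the other silent transcripts. The reverse order was found in 16.2% of the 34166 and 3.21% of the other silent transcripts. The rule used the 0h and 24h means, and the 24h libraries carry other title tags, so this order is a description. By their means alone, 35 of the 53 were higher at 24h than at 0h and 18 were lower.

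The L2H arm asks whether the same transcripts are ever seen under the opposite change. Most stayed low there: the median of the 53 means was 0.46 units at L2H 0h, 0.387 at 4h and 0.36 at 24h, beside 0.52 at H2L 0h and 0.603 at H2L 24h. A mean of at least 1 unit was reached by 13 transcripts at L2H 0h, 10 at 4h and 9 at 24h, where 61.6%, 60.9% and 59.9% of all 43236 transcripts reached it. Counted over the 3 times, 19 of the 53 (35.8%) reached it at least once. The same was true of 68.0% of all transcripts and of 18.1% of the other silent transcripts. Nothing is read from the difference to the other silent transcripts, because values of the 53 are coarser. Their median lowest value above 0 was 0.53 units, beside 0.30. Summed over the 53, abundance was 35.6 ± 7.26 units at L2H 0h, 29.0 ± 2.60 at 4h and 26.2 ± 4.11 at 24h (SD, n = 3), none of its libraries passing 42.3 units.

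**Figure D3:**
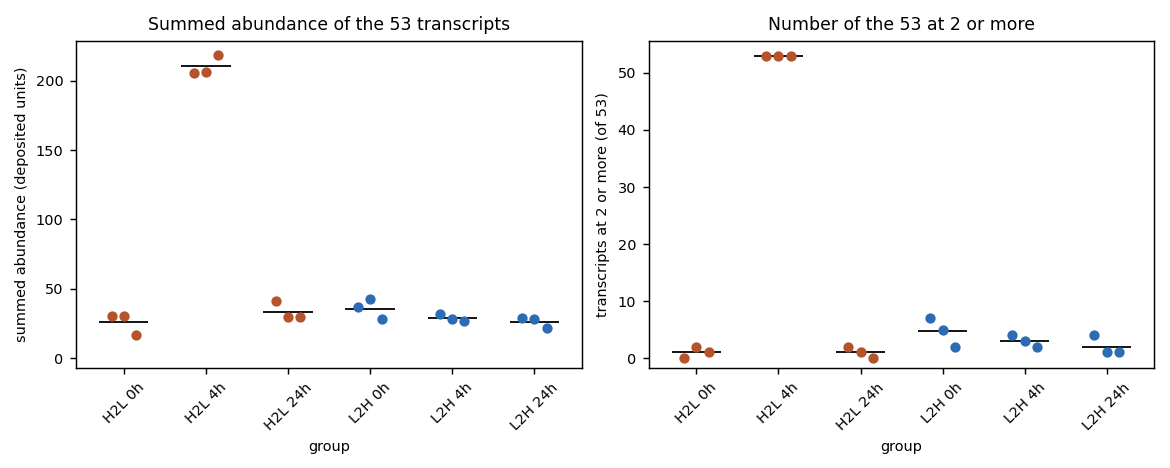
Summed abundance of the 53 transcripts in deposited units (left) and the number of the 53 at 2 units or more (right) in each library (points), by group, with the group mean as a bar. The H2L 4h libraries stand at 206 to 219 units and at 53 of 53 by the rule, while each L2H library holds 1 to 7 of the 53 at 2 units or more.

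Of the 53, 0 had at least 2 units in every library of any L2H group, although 17 reached 2 units in some single L2H library. The shares of all transcripts that do so were not counted, so nothing is read from these numbers. By single L2H library, 1.89% to 13.2% of the 53 stood at 2 units or more, beside 0.877% to 3.01% of the other silent transcripts. This difference is not read either, as values of the 53 are coarser. Every library of a group reached at least 1 unit in 5 transcripts: c25624_g1_i1 and c47062_g4_i1 at 0h, c8952_g1_i1 and c10638_g1_i1 at 4h, and c46480_g6_i1 at both 0h and 24h. The share of all transcripts that do so was not counted. All 3 H2L 4h values lay above every L2H library in 43 of the 53 and above all 15 other libraries in 42. Over the 34166 transcripts these shares were 9.96% and 4.76%. The H2L 4h values were used by the rule, so these counts too are descriptions.

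At the other end, 4 transcripts were listed at 0 in all 9 L2H libraries: c53281_g1_i1, c56860_g1_i1, c12795_g2_i1 and c55783_g1_i1. They are 7.55% of the 53, beside 0.620% of the other silent transcripts. Nothing is read from this difference, because values of the 53 are coarser, with a median lowest value above 0 of 0.53 units beside 0.30. In these 4 the lowest value above 0 was 0.36, 0.93, 0.73 and 0.60 units, so a listed 0 does not exclude a level under it. Their H2L 4h values were 4.11, 3.46 and 6.56 units in c53281_g1_i1, and 2.80, 6.69 and 4.31 units in c56860_g1_i1. In c12795_g2_i1 they were 5.95, 2.27 and 4.17 units, and in c55783_g1_i1 4.55, 2.89 and 4.37 units. Each of the 4 was seen in at least 1 library of H2L 0h and of H2L 24h. A further 6 transcripts were above 0 in all 9 L2H libraries, among them c48787_g1_i1 at 0.02 to 0.19 units.

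The transcripts with the highest L2H means were uneven between libraries. In c46480_g6_i1 the L2H libraries gave 1.21, 4.65 and 2.24 units at 0h, 5.99, 1.09 and 0.57 units at 4h, and 1.72, 1.07 and 1.56 units at 24h. Its H2L 4h values, 2.16, 3.84 and 2.36 units, lay within that range, and its L2H 0h mean of 2.70 ± 1.77 was close to its H2L 4h mean of 2.79 ± 0.92 (SD, n = 3). In c8952_g1_i1 the third library led, with 0, 1.99 and 5.79 units at L2H 0h and 1.10, 1.85 and 3.98 units at 4h. At 24h it gave 2.09, 1.83 and 0 units. In c47582_g2_i1 the L2H values were 2.82, 0 and 0.84 units at 0h, 1.87, 4.04 and 0.86 units at 4h, and 0.89, 0.80 and 0 units at 24h. In these 3 transcripts the L2H 0h and 4h libraries overlap each other and those of H2L 4h. The L2H 24h libraries lie below H2L 4h in c46480_g6_i1 and c47582_g2_i1.

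The transcript c55216_g1_i1 differed between the library series at L2H 0h. Libraries 1 and 2 gave 3.52 and 4.52 units there and the third was listed at 0, while no L2H library at 4h or 24h passed 0.55 units. Its H2L 4h values were 6.83, 4.26 and 7.44 units, and its H2L 0h and 24h values all lay between 0.51 and 0.59 units. The transcript c47062_g4_i1 gave 2.44, 1.60 and 1.16 units at L2H 0h, 0, 0 and 1.16 units at 4h, and 0, 0.37 and 0 units at 24h. Its H2L 4h values were 3.38, 3.04 and 2.81 units. In both transcripts the L2H 0h mean was the highest of the arm.

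**Figure D4:**
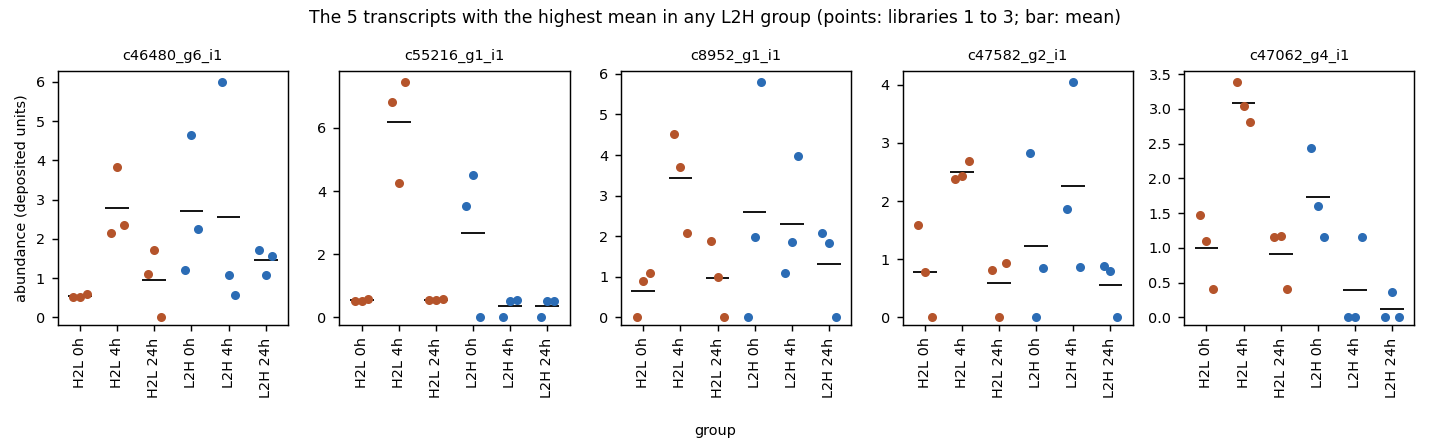
Abundance in deposited units (vertical axis, scaled per panel) of the 5 transcripts with the highest mean in any L2H group, by group (horizontal axis); points are libraries 1 to 3 and bars are means. In c46480_g6_i1, c8952_g1_i1 and c47582_g2_i1 the L2H points spread over and beyond the H2L 4h points, while c55216_g1_i1 and c47062_g4_i1 are high at L2H 0h only within their arm.

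Changes within the L2H arm were tested with limma on log2 of abundance plus 1, fitted to all 18 libraries, with Benjamini-Hochberg adjustment over 34166 transcripts. All 53 entered the test, 30 of them only through their H2L 4h values. In 16 of the 53 at least 3 L2H libraries reached 1 unit, and the others had little room to fall in this arm, so few calls of a fall were possible. The shares over all transcripts, most of which are expressed in L2H, are given beside the counts and nothing about the members is read from the difference. At an adjusted p under 0.05, 0 of the 53 were called between L2H 4h and 0h, where 1.17% of all transcripts tested were called higher and 1.07% lower. Between 24h and 0h 0 were called, beside 0.861% higher and 0.527% lower, and between 24h and 4h 0 were called, beside 1.88% and 0.741%. At an unadjusted p under 0.05 there were 4, 2 and 1 of the 53, beside 18.2%, 15.9% and 15.3% of all tested. The members' median log2 change was -0.00386 between 4h and 0h, -0.02 between 24h and 0h and -0.03 between 24h and 4h. The medians over all transcripts tested were -0.00281, 0.04 and 0.03.

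Every L2H library at 4h lay below every one at 0h in 4 of the 53, an order found in 9.77% of all transcripts tested, and in 2.01% together with H2L 4h above 0h. The transcript c47062_g4_i1 came closest to a call. Its log2 change was -1.05 at L2H 4h (95% interval -1.73 to -0.38, SE 0.32, limma adjusted p = 0.0845) and -1.27 at 24h (-1.95 to -0.60, SE 0.32, limma adjusted p = 0.059). The transcript c55216_g1_i1 had log2 changes of -1.13 at 4h (-2.09 to -0.18, SE 0.45, limma adjusted p = 0.187) and -1.15 at 24h (-2.10 to -0.19, SE 0.45, limma adjusted p = 0.221). Both comparisons share the L2H 0h libraries. Without the third L2H 0h library both transcripts were called lower in both comparisons, where 9.66% and 6.15% of all transcripts tested were called. Then c55216_g1_i1 had log2 changes of -1.91 (limma adjusted p = 0.000642) and -1.92 (0.0015), and c47062_g4_i1 -1.21 (0.0434) and -1.43 (0.0274). Without the third L2H 4h library c47062_g4_i1 was also called in both (limma adjusted p = 0.0104 and 0.0283), where 7.74% and 1.96% of all were called.

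The 3 transcripts that stood highest at H2L 4h lay at 0 to 0.58 units in every L2H library, where the pseudocount of 1 compresses any change on the log2 scale. They passed the filter of 1 unit in 3 libraries only through their H2L 4h values and had little room to fall in L2H. The values that follow are therefore descriptions, and nothing is read from the absence of a call. Between L2H 4h and 0h the log2 change was -0.34 in c40150_g1_i2 (95% interval -0.77 to 0.10, limma adjusted p = 0.416). It was -0.27 in c40057_g1_i1 (-0.74 to 0.21, limma adjusted p = 0.585) and -0.10 in c38465_g1_i1 (-0.61 to 0.41, limma adjusted p = 0.877). Over the 53 the interval reached a rise of 1 on this scale, which doubles abundance plus 1, in 9 transcripts between 4h and 0h, in 12 between 24h and 0h and in 13 between 24h and 4h, and the median half-width was 0.73. For those transcripts the intervals do not exclude a rise of that size.

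**Figure D5:**
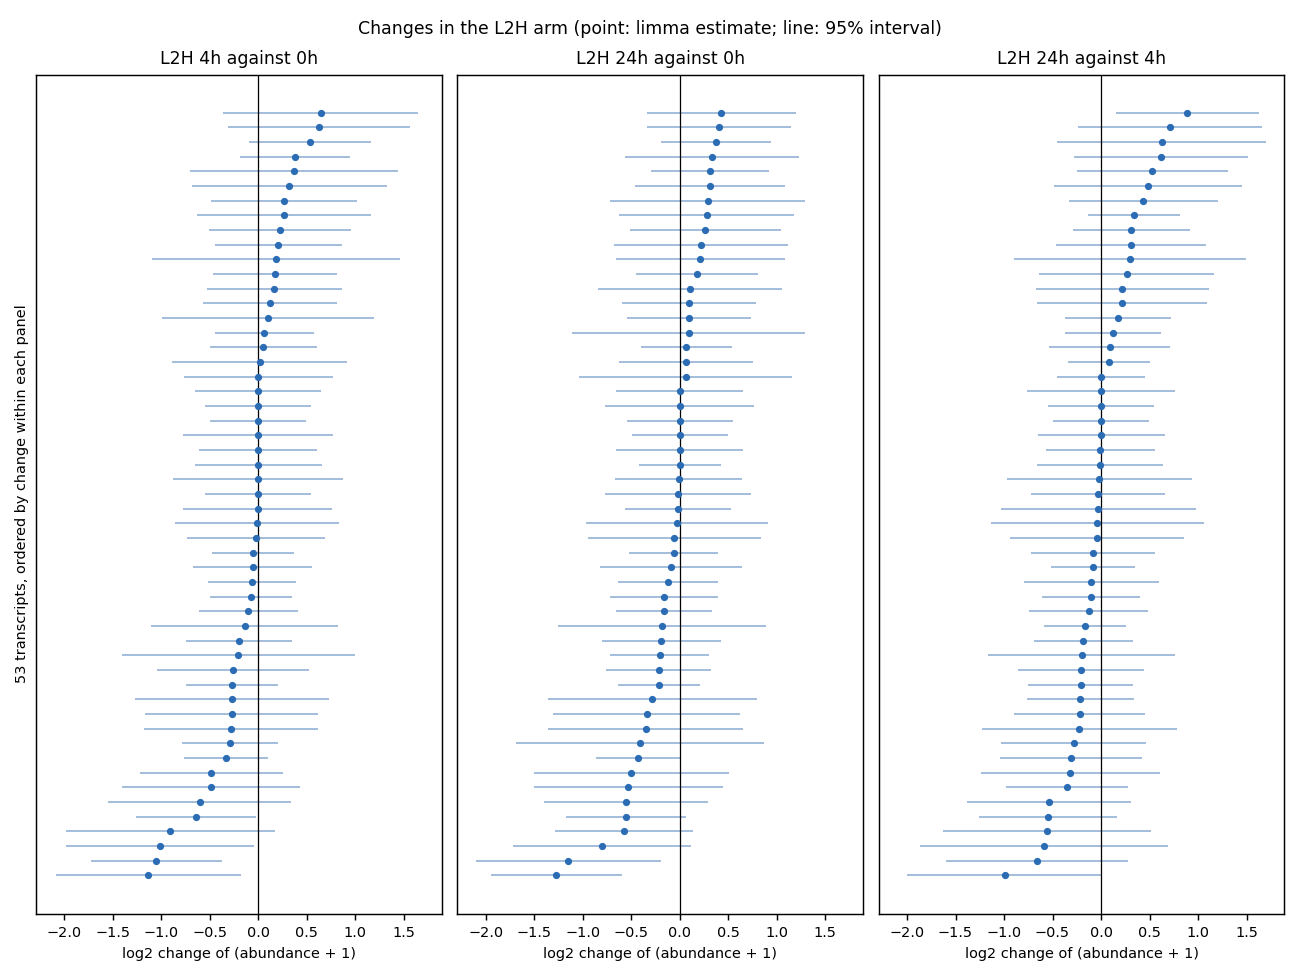
Log2 change of abundance plus 1 (horizontal axis) for the 53 transcripts (rows, ordered by change within each panel) in the 3 comparisons within the L2H arm; points are limma estimates and lines are 95% intervals. Most intervals span 0, and the estimates run from -1.13 to 0.65 between 4h and 0h, from -1.27 to 0.43 between 24h and 0h and from -0.99 to 0.89 between 24h and 4h.

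The identifiers give the only other property that the 53 can be compared on. Each comes from a component of its own, so no 2 of them share the first part of the identifier. In 40 of the 53 (75.5%) the component holds no other listed transcript, as in 57.0% of all transcripts and 81.8% of the other silent transcripts. Isoform 1 was listed for 47 of the 53 (88.7%), beside 80.2% and 89.5%. On both counts the 53 lie nearer to the other silent transcripts than to the whole table.

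The other 13 components hold 30 further transcripts, which may share reads with the members. Their H2L 4h mean was above both the 0h and the 24h mean in 16 of the 30 (53.3%), as in 41.0% of all transcripts. In 3 the 4h libraries lay above all those of 0h and 24h, an order found in 8.33% of the 34166. The largest difference between 4h and 0h in log2 of the mean plus 1 among the 30 was 1.66, in c45951_g5_i1, which gave 1.52, 0 and 0 units at 0h, 3.82, 2.33 and 5.15 units at 4h, and 1.58, 0.82 and 0.89 units at 24h. Its component also holds the member c45951_g1_i4, at 2.24, 2.59 and 2.38 units at 4h. The 2 most abundant of the 30, c41639_g1_i2 and c44995_g1_i2, had H2L 4h means of 69.1 and 71.4 units, below their 0h means of 76.4 and 103 units. The members c41639_g2_i1 and c44995_g2_i1 of the same components had 4h means of 3.72 and 3.77 units.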

How the data were processed

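The authors deposited 1 table whose values are a signal of transcript abundance, adjusted for length and depth. The labels do not say whether the scale is FPKM or TPM. FastQC, Bowtie2 and RSEM are named without versions, per the submitters' processing notes. The depth in reads is unknown. Columns were matched to samples by title, and 0 columns belonged to no sample.

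Members were found with Python 3.11.15 and pandas 2.3.3. The L2H contrasts were fitted with limma 3.58.1 in R 4.3.3 on log2(value + 1), with 1 mean per group over 18 libraries, a trend in the prior variance and two-sided p-values. Transcripts with at least 1 unit in 3 libraries were tested. A log2 change with a pseudocount understates the change of low transcripts. The fit was tested on simulated data. Changes were added there only to transcripts more abundant than the members, so the simulation does not show how the fit performs at their low L2H levels. The members, the naming rule and the alternatives were chosen with earlier results of these data known. The rule names the 10 members highest at H2L 4h, the 5 highest in an L2H group, the 3 nearest to the limit of 2 on either side and the 3 with the widest spread at 4h, plus members called in L2H and members at 0 in all 15 other libraries, of which there were 0 each. Other transcripts named were chosen after their values were seen. Alternatives varied the limits, scaling, pseudocount, filter, variance model and libraries. No sequence was printed because none was used here.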

Additional observations from a re-analysis of the deposited data

Results flagged for a closer look

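In 4 of the 53 transcripts every H2L library at 4h lay above every H2L library at 0h, while every L2H library at 4h lay below every L2H library at 0h. The same held for 2.01% of the 34166 transcripts tested, and 9.77% had every L2H library at 4h below every one at 0h. All 53 meet the H2L condition. The difference between the arms was not tested, because the rule that chose the transcripts used the H2L values. From 0h to 4h the L2H mean differed by -1.25 units in c25624_g1_i1, -0.873 in c29535_g1_i1, -0.80 in c45951_g1_i4 and -0.207 in c40057_g1_i1, and the H2L mean by 3.06, 3.99, 1.55 and 10.1 units. In c40057_g1_i1 all L2H values concerned are at most 0.31 units. Limma called none of these L2H changes at an adjusted p under 0.05.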

How the results depend on the processing

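The number of transcripts that meet the rule depends on its limits. It was 6 with silent means under 0.5, 297 with silent means under 2, and 12 with each silent value under 1. It was 598 with 4h values of at least 1, 4 with at least 5, 262 with the 4h mean in place of every value, and 133 in libraries 1 and 2 alone, of which 40 are among the 53. Leaving out single H2L libraries gave 46 to 173: 106, 115 and 173 without H2L 4h library 1, 2 or 3. Without a 4h library only 2 values must reach 2 units, so these counts cannot fall below 53. The count in libraries 1 and 2 likewise asks for 2 units in only 2 libraries at 4h. Upper-quartile scaling and quantile normalization gave 50 and 45, of which 45 and 42 are among the 53. The 19 transcripts with an L2H mean of at least 1 became 30 at 0.5, 4 at 2 and 5 with every library of a group at least 1, and 19 to 20 when single L2H libraries were left out.

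The limma calls in the L2H arm were 0 in each comparison. For 4h against 0h they were 3 within libraries 1 and 2, 2 without the third libraries at 0h and 4h and 2 with array weights, where 25.6%, 14.0% and 21.0% of all transcripts tested were called. For 24h against 0h they were 4, 2 and 2, beside 20.2%, 7.98% and 13.4% of all, and for 24h against 4h 0, 1 and 1, beside 15.5%, 7.31% and 12.4%. Leaving out single libraries gave 0 to 2, 0 to 2 and 0 calls: for the first and second comparison, leaving out the third library gave 2 and 2 at L2H 0h and 1 and 1 at L2H 4h. All other alternatives gave 0. One of them fitted only the 9 L2H libraries, which keeps the H2L values out of the spread. The smallest limma adjusted p among the 53 was then 0.193, 0.145 and 0.353 in the 3 comparisons, beside 0.0845, 0.059 and 0.212 in the main fit. Of all transcripts tested, 0%, 0.0849% and 0.632% were then called. With the library number as a replicate block there were 0 calls among the 53 in each comparison, and 0, 12 and 125 among all 34166 transcripts. The correlation of same-numbered deviations from the group means ran from -0.18 to 0.15. The -0.18 belongs to the third libraries of L2H 0h and 4h, whose log2 values had r = 0.970 with each other. Deviations from group means take opposite signs where a library series changes differently from the others, so this check cannot decide on a pairing by number. Libraries of L2H 0h and 4h share title tags whose meaning is not stated. A minimum of 10 units left 1 of the 53 to test.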

Other observations

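The same limits were applied to each of the other groups within its own arm, with 2 units in every library of that group and means under 1 in the other groups of the arm. In the H2L arm 23 transcripts met them at 0h and 16 at 24h, beside the 53 at 4h. In the L2H arm 12 met them at 0h, 8 at 4h and 24 at 24h. In libraries 1 and 2 alone the H2L counts were 72 at 0h, 133 at 4h and 47 at 24h, and the L2H counts were 122, 130 and 56. At L2H 4h the count thus went from 8 with all libraries to 130 with libraries 1 and 2, while at H2L 4h it went from 53 to 133. These counts were chosen after seeing the data and were not tested.

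Among the 14025 other transcripts with both H2L silent means under 1, the share at 2 units or more was 2.82% to 3.72% in the H2L 4h libraries. It was 1.57% to 2.22% at L2H 0h, 1.29% to 3.01% at L2H 4h and 0.877% to 1.55% at L2H 24h. At L2H 4h libraries 1 and 2 gave 3.01% and 2.92% and the third 1.29%.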
